A study of Mus musculus with 48 samples.

Results

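The libraries described here came from the trigeminal ganglion (TG), a sensory ganglion, and from the sympathetic superior cervical ganglion (SCG) of mice injected with lipopolysaccharide (LPS). They were chosen as every TG and every SCG library whose label gives LPS as the treatment: 24 of the 48 libraries of the series, 12 of each ganglion. The series profiled small RNA in both ganglia at 4 h, 24 h and 7 d after LPS or saline, so the comparison asks which differences between the ganglia were also present in inflamed animals. All mice were Balb/c, 2.5 months old and of either sex. LPS of E. coli O55:B5, at a dose of 2.5 mg/kg, was injected into the peritoneum, dissolved in saline (volume 0.2 mL), and control mice were injected with saline alone. Each of the 6 LPS groups (TG or SCG at 4 h, 24 h or 7 d) had 4 libraries, 2 from females and 2 from males, and so did each of the 6 saline groups. A library held RNA from both ganglia of a kind of 1 mouse, so right and left sides were pooled. No group carried a transgene or deletion in the labels.

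MicroRNAs (miRNAs) are short RNAs that repress messenger RNAs, mainly through pairing of their seed, bases 2 to 8 from the 5′ end. Fragments of transfer RNA (tRFs) are cut from mature tRNAs. They are classed as 5′-halves and 3′-halves, cut at the anticodon loop, shorter 5′-tRFs and 3′-tRFs, and internal fragments (i-tRFs). Bacterial LPS acts through Toll-like receptor 4 and NF-kB, which drives transcription of miR-155, miR-146a and miR-21 in many cell types. The TG holds cell bodies of sensory neurons of the face with satellite glia and Schwann cells, whereas the SCG holds noradrenergic neurons that innervate the head and neck.

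The 24 libraries held 2198180 to 4934989 miRNA counts and 71644 to 1511191 tRF counts each. After the filter on low counts, 560 of 1978 miRNAs (99.98% of the miRNA counts) and 599 of 13007 tRFs (98.9% of the tRF counts) were tested. Levels are given as CPM, each library's counts over its total after scaling by the trimmed mean of M-values (TMM), and differences as log2 TG minus SCG with the standard error (SE), so that positive values are higher in the TG. A feature is called different at an adjusted p under 0.05 in edgeR's quasi-likelihood test with Benjamini-Hochberg adjustment, with time and sex as covariates. The miR-183 cluster, which marks sensory neurons, summed to 66332 to 82710.2 CPM in the TG libraries and to 221 to 3798 CPM in the SCG libraries. miR-218-5p, which marks motor and autonomic neurons, was at 20986 to 35792 CPM in 11 SCG libraries. The library labelled SCG 7 d LPS replicate 2 stood apart from these: it held 295 CPM of miR-218-5p, 24.4 CPM of miR-615-3p and 230.2 CPM of miR-9-5p, against lows of 228 and 6211 CPM for the latter 2 in the other SCG libraries. Its marker sums for leukocytes (9944 CPM), muscle (35432 CPM) and epithelium or pituitary (11378 CPM) were the highest of the SCG LPS libraries, and its miR-128-3p level was 35652 CPM. The main counts are given with and without it, and other values of the LPS comparison include it unless stated. In bulk RNA, fewer cells of a type and less RNA per cell cannot be told apart. Whether TG and SCG libraries were prepared together is not given in the sources used here, so preparation and ganglion cannot be told apart.

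Mature sequences were available in RefSeq (GRCm38.p6) for 1679 of the 1978 miRNA names and for 483 of the 560 tested. Those below carry the results: the miRNAs with the largest differences in either direction, pairs that share a seed but differ between the ganglia in opposite directions, and the miRNAs linked to LPS. They are written 5′ to 3′ with the seed in capitals. The first set was higher in the TG and comes from the miR-183 cluster, the miR-216 and miR-217 cluster and miR-34a.
miR-183-5p: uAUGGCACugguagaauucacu
miR-96-5p: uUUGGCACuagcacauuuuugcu
miR-182-5p: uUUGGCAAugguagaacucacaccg
miR-216a-5p: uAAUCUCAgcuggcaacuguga
miR-216b-5p: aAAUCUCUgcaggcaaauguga
miR-217-5p: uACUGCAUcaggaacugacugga
miR-34a-5p: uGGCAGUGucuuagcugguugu

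The second set was higher in the SCG and comes from the Hox clusters, the Slit genes and the miR-34b host, the last with the same GGCAGUG seed as miR-34a-5p.
miR-10a-5p: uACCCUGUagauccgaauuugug
miR-10b-5p: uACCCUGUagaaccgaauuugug
miR-615-3p: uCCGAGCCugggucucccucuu
miR-218-5p: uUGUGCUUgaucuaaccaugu
miR-34b-5p: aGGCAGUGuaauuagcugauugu

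The third set holds the pair with the UCACAGU seed that differed in opposite directions, and the miRNAs known to be induced through NF-kB, among which miR-146a-5p and miR-146b-5p share the GAGAACU seed.
miR-27a-3p: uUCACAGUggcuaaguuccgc
miR-27b-3p: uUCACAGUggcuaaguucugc
miR-155-5p: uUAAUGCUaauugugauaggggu
miR-21a-5p: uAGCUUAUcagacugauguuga
miR-146a-5p: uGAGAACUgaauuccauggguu
miR-146b-5p: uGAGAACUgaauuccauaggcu

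After LPS, 136 of the 560 miRNAs tested were higher in the TG (24.3%) and 153 were higher in the SCG (27.3%). Without SCG 7 d LPS replicate 2, these became 194 (34.2%) and 199 (35%) of 568. Differences of more than 2-fold were called for 60 miRNAs toward the TG and 95 toward the SCG, and of more than 8-fold for 20 and 9. Without that library they were called for 77 and 98, and for 30 and 8. Every TG library lay above every SCG library for 53 miRNAs (9.46%), and every SCG library above every TG library for 18 (3.21%). Leaving out SCG 7 d LPS replicate 2 made these numbers 67 (12%) and 69 (12.3%).

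The same comparison in the 24 saline libraries, which shares no library with the LPS comparison, called 170 of 541 miRNAs higher in the TG (31.4%) and 189 higher in the SCG (34.9%). Without 3 SCG saline libraries that stood apart by their muscle or miR-183 sums it called 192 (33.6%) and 172 (30.1%) of 571. Of the 170 higher in the TG after saline with all libraries, 116 (68.2%) were also called higher in the TG after LPS, and of the 189 higher in the SCG, 128 (67.7%) were also called there. The numbers were 156 (91.8%) and 165 (87.3%) without SCG 7 d LPS replicate 2. No miRNA was called in opposite directions after saline and after LPS. Without 3 TG 7 d saline libraries that stood apart by their pan-neuronal sums, 168 and 188 of the same miRNAs were called after saline, 114 and 125 of them in the same direction after LPS. Of those not called again with all libraries, 40 of 53 and 50 of 60 had the same sign. Conversely, 18 miRNAs called higher in the TG after LPS and 20 called higher in the SCG were tested but not called after saline, all with the same sign as after LPS. Across the 531 miRNAs tested in both, Pearson's r between the 2 log2 differences was 0.946, as a description over miRNAs, which are not independent replicates.

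**Figure D1:**
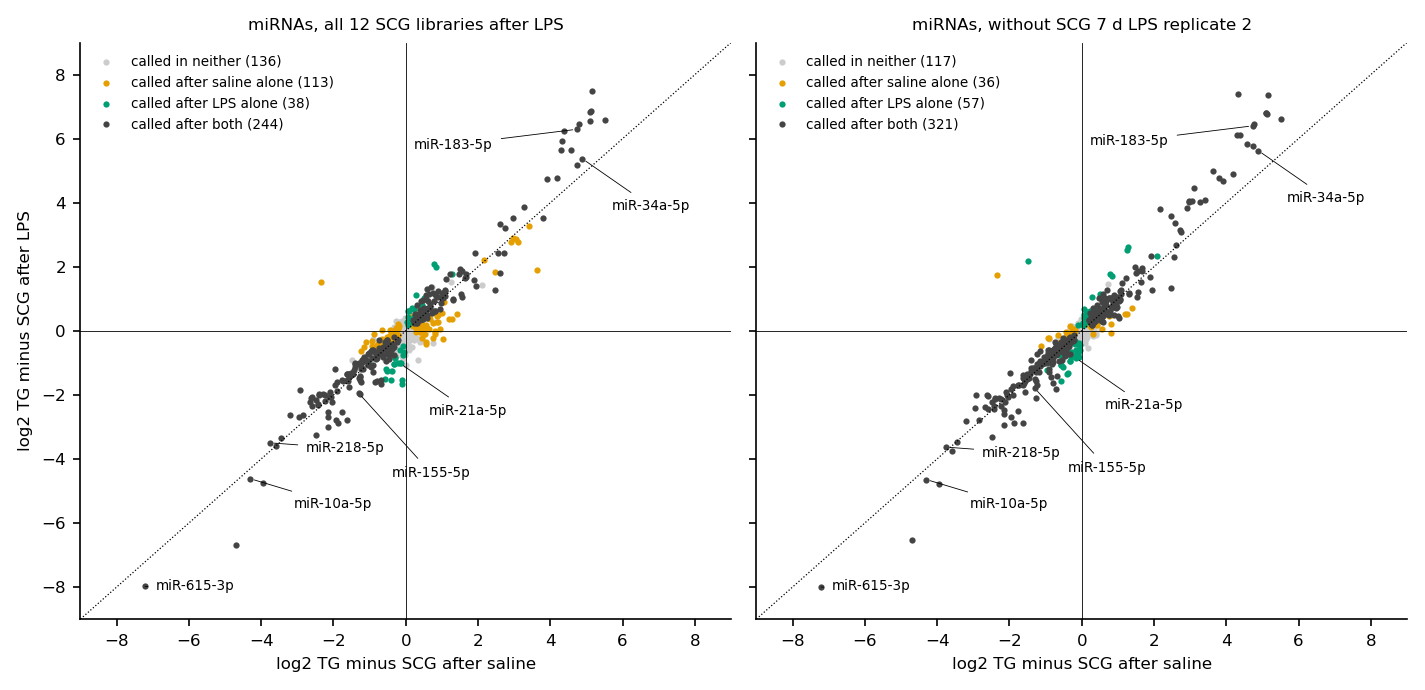
Each point is a miRNA, with its log2 TG minus SCG difference after saline on the horizontal axis and after LPS on the vertical axis, for all libraries (left) and without SCG 7 d LPS replicate 2 (right); the dotted line marks equal differences. The legends count the plotted miRNAs: with all libraries 244 were called in both comparisons, 113 after saline alone and 38 after LPS alone. The counts were 321, 36 and 57 without that library, among the miRNAs that were also tested with all libraries.

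Sensory-neuron miRNAs were among the largest differences toward the TG. All 6 tested members of the miR-183 cluster, a sensory-organ cluster required for normal function of hair cells, photoreceptors and touch and pain neurons, were higher in the TG, with a median log2 difference of 6.10 against -0.11 over all 560 miRNAs. miR-183-5p was at 37674 to 47991 CPM (median 43799.5) in the TG and 116 to 1945 CPM (median 467) in the SCG after LPS. The 2 ganglia were far apart in every library, and the log2 difference was 6.29 ± 0.41, adjusted p = 2.94e-11 (SE, edgeR's quasi-likelihood test with Benjamini-Hochberg adjustment). miR-96-5p was at 3856 to 4827 CPM (median 4487) in the TG and 10.3 to 174 CPM (median 33.9) in the SCG, with a log2 difference of 6.54 ± 0.44, adjusted p = 4.36e-11. miR-182-5p differed by 5.64 ± 0.38, adjusted p = 4.28e-11. Of the opposite strands, miR-96-3p had 139 counts in the TG and none in the 12 SCG libraries, at least 38.8-fold higher in the TG (3 counts over the group taken as the floor). miR-183-3p had 667 counts in the TG and 9 in the SCG. Both passed the filter on low counts through the TG libraries alone, so their direction adds no support to that of the guides. Mir183 (GRCm38.p6 chr6:30169668-30169737 on the minus strand), Mir96 (chr6:30169446-30169551 on the minus strand) and Mir182 (chr6:30165918-30165992 on the minus strand) lie between Nrf1 and Ube2h, within no annotated gene.

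In saline mice the miR-183-5p difference was 4.73. The difference between the LPS and saline values was 1.70 (adjusted p = 0.217, edgeR's quasi-likelihood test with Benjamini-Hochberg adjustment over all 48 libraries), which did not pass the threshold. The TG mean was 41762 ± 3566 CPM (SD, n = 4) at 24 h after LPS and 41001 ± 4763 CPM (SD, n = 4) at 24 h after saline. In the SCG the level reached 12808 CPM in 1 saline library, SCG 24 h saline replicate 1, whereas the highest SCG LPS library had 1945 CPM. The log2 difference at 4 h, 24 h and 7 d after LPS was 5.22, 7.19 and 6.45.

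The 5 tested arms of the miR-216 and miR-217 cluster, best known from pancreatic acinar cells, were all higher in the TG, with a median of 6.82 after LPS and 5.10 after saline. miR-217-5p was at 459.6 to 635 CPM (median 556) in the TG and 0 to 19.5 CPM (median 5.32) in the SCG (log2 6.82 ± 0.56, adjusted p = 1.22e-09). miR-216a-3p was at 57.7 to 88.9 CPM (median 72.2) in the TG and 0 to 1.13 CPM (median 0.123) in the SCG (log2 7.50), and 6 of 12 SCG libraries had any count of it. With 15 SCG counts, miR-216a-3p passed the filter on low counts through the TG libraries alone, as did miR-216a-5p with 8. miR-216b-5p differed by 6.85 ± 0.50, adjusted p = 1.91e-10. Mir216b (chr11:28746191-28746276 on the plus strand), Mir216a (chr11:28757012-28757083 on the plus strand) and Mir217 (chr11:28763728-28763835 on the plus strand) lie side by side in GRCm38.p6, the latter 2 in an intron of the long noncoding RNA gene Gm12082. Both miR-135 guides were also higher in the TG: miR-135b-5p was at 22.5 to 38.1 CPM (median 29.5) in the TG and 0.270 to 2.28 CPM (median 1.07) in the SCG (log2 4.77 ± 0.22, adjusted p = 5.72e-14), and miR-135a-5p differed by 1.60 (adjusted p = 0.000254).

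Members of the p53-linked miR-34 family differed in opposite directions. miR-34a-5p, encoded at chr4:150068454-150068555 on the plus strand, was at 302 to 389 CPM (median 347) in the TG and 5.74 to 25.7 CPM (median 6.96) in the SCG. No library of one ganglion came near the other, and the difference was 5.37 ± 0.23, adjusted p = 1.68e-14 after LPS and 4.89 after saline. The highest SCG value was that of SCG 7 d LPS replicate 2, and the other SCG libraries reached 8.20 CPM. miR-34c-5p was at 21.2 to 73.1 CPM (median 41.8) in the TG and 74.2 to 301 CPM (median 222) in the SCG, with a difference of -2.34 ± 0.22, adjusted p = 8.01e-09. miR-34b-5p, from the same precursor gene as miR-34c, was near the detection limit in the TG (at most 1.32 CPM) and differed by -2.07 (adjusted p = 0.000109). Mir34b (chr9:51103562-51103645 on the minus strand) and Mir34c (chr9:51103034-51103110 on the minus strand) lie opposite an intron of Btg4. In all, 1 of the 5 tested members was higher in the TG and 4 were higher in the SCG, with the same split after saline.

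Glial miRNAs were higher in the TG. Of the 8 tested, 6 were called in that direction and none in the other, with a median of 1.85 after LPS and 1.37 after saline. miR-338-3p, which promotes maturation of myelinating glia, was at 2072 to 2732 CPM (median 2445) in the TG and 38.1 to 605 CPM (median 475) in the SCG. The ganglia did not overlap, the lowest SCG value was that of SCG 7 d LPS replicate 2, and the difference was 2.43 ± 0.25, adjusted p = 5.19e-08. miR-219a-2-3p, another miRNA of myelinating glia, was at 53.4 to 1102 CPM (median 232) in the TG and 0.290 to 14.7 CPM (median 2.12) in the SCG (log2 6.58 ± 0.58, adjusted p = 4.91e-09) and varied over a wide range among TG libraries. miR-338-5p and miR-204-5p, the latter common in Schwann cells, differed by 1.94 and 1.28.

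**Figure D2:**
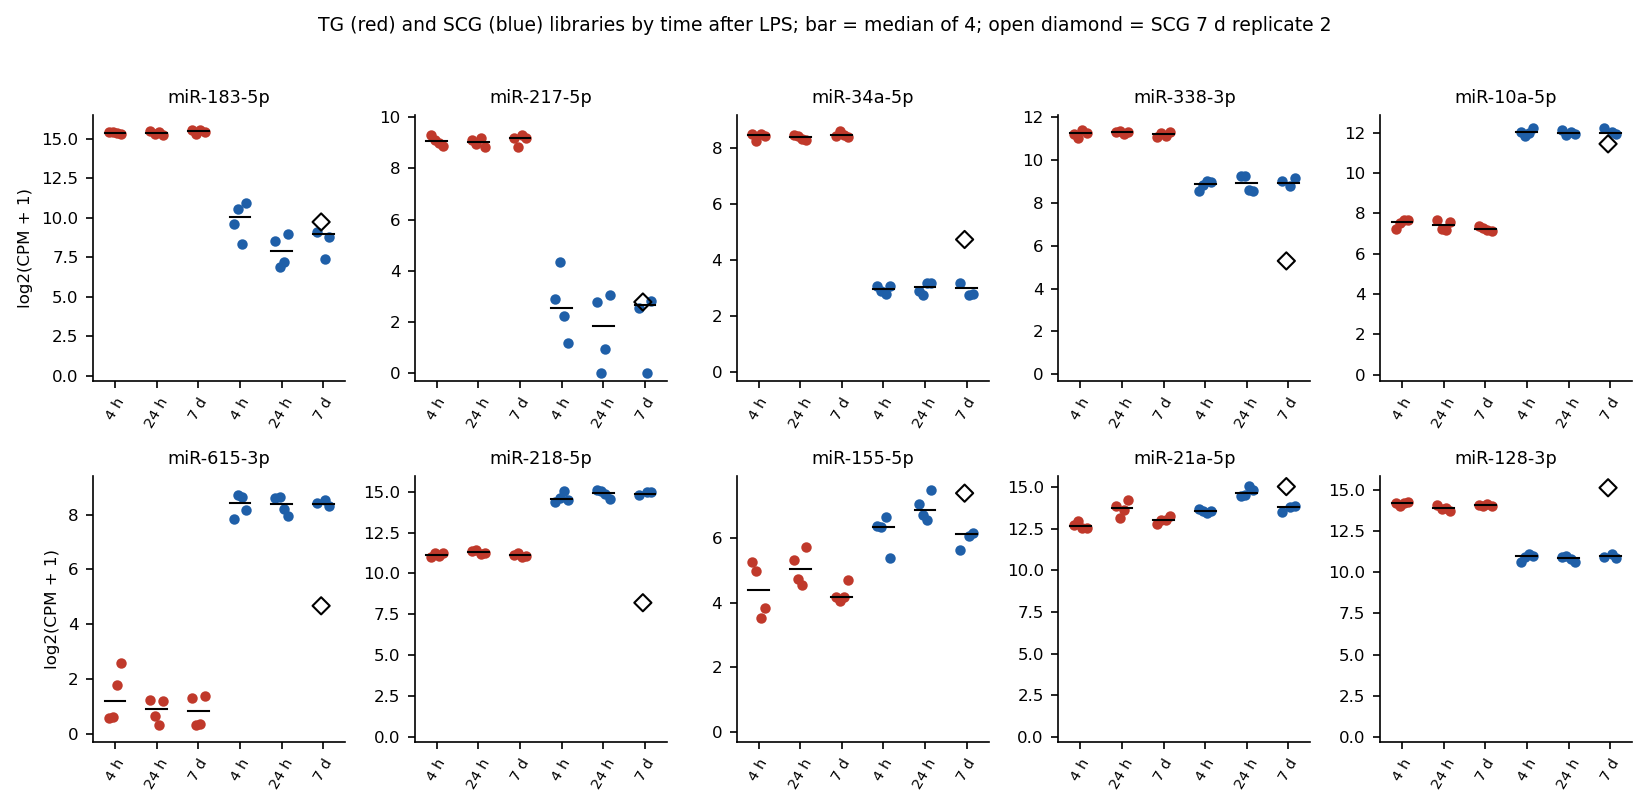
Levels of 10 miRNAs, as log2(CPM + 1), in each TG (red) and SCG (blue) library at 4 h, 24 h and 7 d after LPS, with the median of 4 as a bar and SCG 7 d LPS replicate 2 as an open diamond. TG libraries lie above SCG libraries for miR-183-5p, miR-217-5p, miR-34a-5p and miR-338-3p, and SCG libraries lie above TG libraries for miR-10a-5p and miR-615-3p; the diamond lies below the TG for miR-218-5p and above it for miR-128-3p.

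Hox-cluster miRNAs were among the largest differences toward the SCG. These are transcribed from within the Hox gene clusters, whose expression follows position along the body axis; the cranial TG and the SCG arise from neural crest of different levels. All 6 tested members were higher in the SCG, with a median of -3.75 (-3.48 without SCG 7 d LPS replicate 2). miR-615-3p was at 0.231 to 4.91 CPM (median 0.915) in the TG and 24.4 to 415 CPM (median 329.9) in the SCG, with a difference of -7.98 ± 0.50, adjusted p = 1.4e-11. The lowest SCG value was that of SCG 7 d LPS replicate 2, still above every TG library. miR-10a-5p, encoded at GRCm38.p6 chr11:96317165-96317274 on the plus strand, 993 bp from Hoxb4, was at 141 to 207 CPM (median 159) in the TG and 2798 to 4817 CPM (median 4169) in the SCG (log2 -4.62 ± 0.10, adjusted p = 7.03e-20). miR-10b-5p, encoded at chr2:74726070-74726137 on the plus strand in an intron of Hoxd3 and Hoxd4, was at 2985 to 3854 CPM (median 3308) in the TG and 10163 to 14630.2 CPM (median 12256) in the SCG (log2 -1.90 ± 0.06, adjusted p = 1.35e-16). For all 3 no SCG library overlapped with a TG library. miR-10a-5p and miR-10b-5p share the ACCCUGU seed, and both were higher in the SCG. The other arms differed by -4.74 (miR-10a-3p) and -2.15 (miR-10b-3p), and miR-196b-5p by -2.89 (adjusted p = 0.00194) at low levels. After saline, miR-615-3p, miR-10a-5p and miR-10b-5p differed by -7.21, -4.30 and -2.10.

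miR-218-5p, miR-7a-5p and miR-7b-5p, of the autonomic and neuroendocrine kind, were also higher in the SCG. miR-218-5p, transcribed from introns of the axon-guidance genes Slit2 (GRCm38.p6 chr5:48223942-48224051) and Slit3 (chr11:35616816-35616925), was at 2019 to 2728 CPM (median 2363) in the TG and 20986 to 35792 CPM (median 29585) in the SCG, leaving out SCG 7 d LPS replicate 2. In that library it was below every TG library. The difference was -3.50 ± 0.38, adjusted p = 1.23e-07 with all libraries, -3.63 without that library and -3.76 after saline. miR-7a-5p, abundant in neuroendocrine cells, was at 4069.7 to 26459.7 CPM (median 5946) in the TG and 6004 to 39963 CPM (median 33265) in the SCG (log2 -2.0 ± 0.32, adjusted p = 2.62e-05), and miR-7b-5p differed by -2.64 (adjusted p = 0.00201). The ganglia overlapped for miR-7a-5p only through SCG 7 d LPS replicate 2, at 6004 CPM; the other SCG libraries, at 27683 CPM or more, lay above every TG library. The highest TG value was in TG 24 h LPS replicate 3, which also had the highest TG sum of epithelial and pituitary markers (6665 CPM) and the highest TG miR-375-3p level (4458 CPM). The part of those cells in the miR-7a-5p level was not tested. Of the 3 miR-7 arms tested, 2 were called higher in the SCG and 1 was not called. Of the 4 tested without SCG 7 d LPS replicate 2, 2 were higher in the SCG. In that fit 1, miR-7a-2-3p, was higher in the TG (3.46, adjusted p = 0.000141, edgeR's quasi-likelihood test). miR-490-3p and miR-490-5p differed by -3.36 and -3.59, both toward the SCG.

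Pan-neuronal miRNAs, shared by most neurons, split between the ganglia. Of 14 tested, 8 were higher in the TG and 4 in the SCG (median 0.80), and without SCG 7 d LPS replicate 2 the counts were 9 and 5, as after saline. miR-128-3p was at 13687 to 19585 CPM (median 16928) in the TG and 1548 to 2242 CPM in 11 SCG libraries, but at 35652 CPM in SCG 7 d LPS replicate 2. Its difference was 2.44 ± 0.47, adjusted p = 0.000185, or 3.13 without that library. miR-124-3p, which maintains neuronal identity, differed by 1.09 (adjusted p = 0.00568). In the other direction, miR-137-3p, miR-153-3p and miR-129-2-3p differed by -1.02, -1.24 and -1.68. The activity-induced miR-132 and miR-212 arms gave no call among 3 tested, and without SCG 7 d LPS replicate 2 miR-212-5p was called higher in the SCG (-0.75, adjusted p = 0.0114).

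The imprinted Dlk1-Dio3 cluster, expressed from the maternal chromosome in neurons among other cells, was mostly higher in the SCG. Of 51 tested members, 25 were called higher in the SCG and 2 in the TG (median -0.63). Without SCG 7 d LPS replicate 2 the counts were 37 and 5, close to the 41 and 3 after saline. The cluster summed to 2889 CPM in that library and to at least 40522 CPM in every other SCG LPS library. miR-323-3p and miR-487b-3p differed by -2.63 and -2.21, whereas miR-299a-3p differed by 0.92 (adjusted p = 3.93e-06) toward the TG.

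Seed groups were formed among tested miRNAs with a mature sequence in RefSeq, which left out miR-23b-3p and miR-34c-5p among others. Of the 50 groups with at least 2 members (132 miRNAs), 5 held calls in both directions, and 8 did without SCG 7 d LPS replicate 2. Besides the GGCAGUG group of miR-34a-5p and miR-34b-5p, these were the groups of miR-192-5p (0.38) with miR-215-5p (-2.06), of miR-24-1-5p (0.58) with miR-24-2-5p (-0.45), of miR-27b-3p with miR-27a-3p, and the let-7 family. miR-27a-3p, at chr8:84208672-84208758 in GRCm38.p6, differed by -0.45 ± 0.08, adjusted p = 4.59e-05, and miR-27b-3p, at chr13:63300712-63300784, by 0.58 ± 0.10, adjusted p = 3.38e-05. miR-24-2-5p and miR-23a-3p (-0.73), from the same locus as miR-27a, were higher in the SCG as well, whereas miR-24-1-5p, from the locus of miR-27b, was higher in the TG. With no filter on low counts miR-192-5p (adjusted p = 0.168) and miR-24-2-5p (adjusted p = 0.0755) were no longer called. Within the let-7 family, 6 of 10 members were higher in the TG, among them let-7a-5p (0.52) and let-7i-5p (0.31), and 3 were higher in the SCG, among them let-7b-5p (-0.27).

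The miRNAs that NF-kB and LPS are known to induce were on balance higher in the SCG after LPS. Of 11 tested, 8 were called higher in the SCG and 1 in the TG (median -0.85). After saline, 3 of 8 tested were higher in the SCG and 2 in the TG (median -0.23). Over all miRNAs tested, 27.3% were called higher in the SCG after LPS and 34.9% after saline. The 2 sets of tested members differ, so their counts and medians are not a like comparison. miR-155-3p (-2.58 after LPS without SCG 7 d LPS replicate 2), for example, did not pass the filter on low counts in the saline libraries. miR-155-5p, a mediator of macrophage and lymphocyte activation encoded in an exon of Mir155hg (GRCm38.p6 chr16:84714140-84714204 on the plus strand), was at 10.6 to 52.2 CPM (median 23.8) in the TG and 40.5 to 177 CPM (median 87) in the SCG. The ranges overlapped over all times, and the difference was -1.95 ± 0.25, adjusted p = 1.08e-06 after LPS and -1.30 after saline. By time it was at 10.6 to 37.7, 22.5 to 52.2 and 15.7 to 25.1 CPM in the TG at 4 h, 24 h and 7 d, and at 40.5 to 100.1, 92.7 to 177 and 49 to 167 CPM in the SCG. At each time the SCG libraries lay above the TG libraries. miR-146a-5p, a feedback inhibitor of NF-kB signalling, was at 1244 to 4129.8 CPM (median 2256) in the TG and 1805 to 8540.1 CPM (median 3653) in the SCG (log2 -0.95 ± 0.17, adjusted p = 7.17e-05, and -0.55 after saline). miR-146b-5p, with the same seed, differed by 0.19 (adjusted p = 0.329) with all libraries, and by 0.32 (adjusted p = 0.0274) without SCG 7 d LPS replicate 2. miR-221-3p and miR-222-3p, induced in injured nerve and muscle, differed by -0.85 and -0.77, and for miR-222-3p no SCG library overlapped with a TG library.

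A test of whether the ganglion difference itself differed between LPS and saline mice, over all 48 libraries, called 1 of 577 miRNAs (0.173%), with 72 at an unadjusted p under 0.05. DESeq2 called 3. The miRNA was miR-21a-5p, induced by NF-kB, STAT3 and injury and encoded in an exon of Vmp1 (GRCm38.p6 chr11:86584067-86584158 on the minus strand). In saline mice the log2 difference was -0.16 (adjusted p = 0.219) and did not pass the test, with 4024 to 6297 CPM in the TG and 4238 to 9768 CPM in the SCG. After LPS it was at 5943 to 18899 CPM (median 8192) in the TG and 10979.6 to 33907 CPM (median 14526) in the SCG, with a difference of -1.01 ± 0.16, adjusted p = 1.64e-05. At 4 h the TG libraries held 5943 to 7968 CPM and the SCG libraries 10979.6 to 13053 CPM. At 24 h they held 8892 to 18899 and 22114 to 33907 CPM, and at 7 d 7097 to 9628 and 11476 to 33222 CPM. The ganglia did not overlap at any of the 3 times. The LPS minus saline change in the difference was -0.91 ± 0.19 (SE, adjusted p = 0.0194, edgeR's quasi-likelihood test with Benjamini-Hochberg adjustment), and -0.76 (adjusted p = 0.0145) without SCG 7 d LPS replicate 2. Leaving out 1 library at a time gave values from -1.02 to -0.76 and ended the call for 25 of the 48 libraries, with adjusted p from 0.0018 to 0.0886. These 25 came from 11 of the 12 groups, 1 to 3 in each. Without TG 7 d saline replicates 1, 2 and 4, which stood apart by their pan-neuronal miRNAs, the value was -0.97 (adjusted p = 0.0983) over the same 577 miRNAs and none was called (66 at an unadjusted p under 0.05). When SCG 7 d LPS replicate 2 was left out, miR-129-2-3p was called as well (-1.21, adjusted p = 0.0399), so that 2 of 590 miRNAs passed (0.339%). When 3 SCG saline libraries were left out too, 2 of 603 passed (0.332%), not necessarily the same ones.

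Leukocyte miRNAs were on balance higher in the SCG after LPS. Of 9 tested, 6 were called higher in the SCG and none in the TG (median -0.61), or 6 and 1 without SCG 7 d LPS replicate 2. After saline 2 of 8 were higher in each ganglion (median -0.11), so the members tested were not all the same. Their summed level was 425 to 641 CPM in the TG and 614 to 999 CPM in the SCG without SCG 7 d LPS replicate 2. miR-223-3p, of neutrophils and monocytes, was at 3.47 to 10.5 CPM (median 6.99) in the TG and 5.01 to 30.3 CPM (median 11.1) in the SCG (log2 -1.02 ± 0.25, adjusted p = 0.00201). Its difference was -0.76 without SCG 7 d LPS replicate 2 (adjusted p = 0.00118, edgeR's quasi-likelihood test), and -0.12 after saline (adjusted p = 0.647). The change in its difference between LPS and saline mice was -0.97 and did not pass (adjusted p = 0.217, edgeR's quasi-likelihood test). The changes for miR-142a-3p and miR-342-3p did not pass either (adjusted p = 0.204 for both, same test). These changes are those with all libraries, and none of them passed without SCG 7 d LPS replicate 2. miR-142a-3p, expressed across blood lineages, differed by -1.67 (adjusted p = 0.0226) with all libraries and by -0.70 without SCG 7 d LPS replicate 2, which held 3289.7 CPM against at most 149 CPM in the other SCG libraries. miR-342-3p differed by -0.61, and miR-150-5p, of mature lymphocytes, by -0.41 (adjusted p = 0.32). The part of leukocytes in the levels of miR-155-5p, miR-146a-5p and miR-21a-5p was not tested.

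Stromal miRNAs were higher in the SCG. All 10 tested miRNAs of mesenchyme and smooth muscle were called in that direction after LPS (median -1.57) and 6 of the 10 after saline (median -0.76). miR-143-3p, of smooth muscle and fibroblasts, was at 6964 to 22548 CPM (median 8816) in the TG and 13067 to 175482 CPM (median 86411) in the SCG (log2 -2.77 ± 0.37, adjusted p = 1.85e-06), with overlap of the ganglia. miR-145a-5p, from the same transcript, differed by -2.89, and miR-199a-3p, whose counts are nearly those of miR-199b-3p, by -1.04. miR-140-3p, of cartilage, differed by -1.25 after LPS and -0.37 (adjusted p = 0.147) after saline, and miR-126a-3p, of endothelium, by -0.57 after LPS. For miR-140-3p the test of a change between LPS and saline mice gave no call. The summed level of the mesenchyme list ran from 9847 to 26855 CPM in the TG and from 15009.9 to 190801 CPM in the SCG.

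Markers of other cells that a dissection can carry along were uneven. Of the 10 epithelial and pituitary miRNAs tested, 1 was called with all libraries: miR-203-3p, of skin and other epithelia, higher in the SCG (-2.68 ± 0.33, adjusted p = 7.76e-07). After leaving out SCG 7 d LPS replicate 2, another 8 were higher in the TG, led by the miR-200 family, and the median was 3.81. The list summed to 140.1 to 6665 CPM in the TG and 319 to 1616 CPM in the other SCG libraries. Muscle miRNAs summed to 4704 to 13598 CPM and 201 to 12121 CPM, and 3 of 6 were higher in the TG (5 without SCG 7 d LPS replicate 2). Erythroid miRNAs were higher in the TG for 4 of 7 after LPS (median 0.96) and for all 7 after saline (median 1.32). The 4 called after LPS were all arms of miR-486a and miR-486b. Matching arms had nearly the same range when 1 library was left out, 0.84 to 1.17 for miR-486a-5p and 0.82 to 1.14 for miR-486b-5p. For the 3p arms it was 1.55 to 1.87 and 1.63 to 1.99, so the 4 are not taken as separate measurements. miR-144-3p and miR-144-5p were not called after LPS (adjusted p = 0.356 and 0.229, edgeR's quasi-likelihood test). miR-451a, the main red-cell miRNA, differed by 0.38 (adjusted p = 0.375) after LPS and 1.26 (adjusted p = 0.00079) after saline. The liver miRNA miR-122-5p differed by 1.12 after LPS (adjusted p = 5.93e-06) and 0.28 after saline (adjusted p = 0.323), and for it TG and SCG libraries did not overlap after LPS. The part of these cells in the other differences was not tested. For miR-451a and miR-122-5p the test of a change between LPS and saline mice gave no call.

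miR-99a-5p, the most abundant on average, was at 122623 to 151116 CPM (median 138846) in the TG and 37667 to 103125 CPM (median 92463) in the SCG (log2 0.64 ± 0.10, adjusted p = 2.78e-05), and miR-26a-5p differed by 0.49. Of 79 miRNAs with a mean of at least 1000 CPM, 17 had a 95% interval of the log2 difference within -0.5 to 0.5. Among them were miR-29a-3p (0.09), let-7c-5p (0.03), miR-125a-5p (-0.01), miR-99b-5p (0.12) and miR-191-5p (0.09). The miR-17-92 list, 14 tested members that act in proliferating cells, gave no call (median -0.44), but 7 were higher in the TG without SCG 7 d LPS replicate 2 (median 0.22). The miR-30 family was higher in the TG for 6 of 8 members. miR-6538, chosen after its values were seen, had opposite signs: the difference was -2.34 (adjusted p = 0.00144) after saline and 1.54 (adjusted p = 0.144) after LPS, and the change in the difference did not pass the threshold (adjusted p = 0.204).

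Differences were called at each time after LPS. At 4 h, 67 miRNAs were higher in the TG (12%) and 88 in the SCG (15.7%), at 24 h 93 (16.6%) and 78 (13.9%), and at 7 d 74 (13.2%) and 92 (16.4%). These counts include SCG 7 d LPS replicate 2, which is 1 of the 4 SCG libraries at 7 d. No miRNA passed the test of a ganglion difference that changed over the 3 times (0 of 560, 36 at an unadjusted p under 0.05 in edgeR's quasi-likelihood test, 1 called by the DESeq2 likelihood ratio test). Without SCG 7 d LPS replicate 2, 0 of 568 passed (25 at an unadjusted p under 0.05). The smallest adjusted p was then 0.0563, near the threshold, against 0.516 with all libraries (edgeR's quasi-likelihood test). None passed the test of a difference between the sexes (0 of 560, 41 at an unadjusted p under 0.05, 12 called by DESeq2).

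Fragments of tRNA differed between the ganglia in where they began and ended. The sequences below, from the deposited tRF annotation, are fragments of 1 tRNA that share a 5′ end and differ in length. Capitals mark the last bases, the stretch in which fragments of the same tRNA end at different positions.
His GTG, 34 nt (tRF-34-6SXMSL73VL4YHE): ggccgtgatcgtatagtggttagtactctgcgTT
His GTG, 35 nt (tRF-35-6SXMSL73VL4YMY): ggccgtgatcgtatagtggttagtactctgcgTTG
Lys CTT, 31 nt (tRF-31-PSQP4PW3FJI0B): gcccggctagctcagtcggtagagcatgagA
Lys CTT, 33 nt (tRF-33-PSQP4PW3FJI0W): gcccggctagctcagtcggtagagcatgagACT
Gly GCC, 31 nt (tRF-31-P4R8YP9LON4VD): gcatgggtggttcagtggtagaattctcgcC
Gly GCC, 32 nt (tRF-32-P4R8YP9LON4V3): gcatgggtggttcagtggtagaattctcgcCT

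Pairs of 3′-halves that share a 3′ end, the longer of which begins 1 base further 5′, are shown for 3 tRNAs because their ganglion differences were unequal. Capitals mark their 5′-start bases.
Asn GTT, 40 nt (tRF-40-U1O0789NLJK1JKE1): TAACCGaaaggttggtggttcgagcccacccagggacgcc
Asn GTT, 41 nt (tRF-41-YDLBRY73W0K5KKOVD): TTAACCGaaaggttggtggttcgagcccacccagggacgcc
Asp GTC, 40 nt (tRF-40-2VR008R959KUMKF6): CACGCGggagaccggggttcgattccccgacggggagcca
Asp GTC, 41 nt (tRF-41-8HM2OSRNLNKSEK51B): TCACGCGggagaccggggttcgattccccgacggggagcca
Glu TTC, 40 nt (tRF-40-2R1HPSR9O9337KB6): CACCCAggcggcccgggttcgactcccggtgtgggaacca
Glu TTC, 41 nt (tRF-41-81JJ6RRNLIK898O1B): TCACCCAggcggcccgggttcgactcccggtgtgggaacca

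The SCG held more tRF counts relative to miRNA counts after LPS, as it did after saline. tRF counts per 100 miRNA counts were 2.40 to 11 (median 4.80) in the TG and 2.80 to 31.7 (median 8.08) in the SCG, with overlap of the ganglia (p = 0.00979, adjusted p = 0.0157 over 8 measures, two-sided permutation test with 100000 permutations). 5′-halves, the most abundant class, made up 69.5% to 83.3% (median 77.5%) in the TG and 41.2% to 74.4% (median 62.9%) in the SCG (adjusted p = 0.000347, permutation test). 5′-tRFs made up 9.47% to 20.4% (median 15%) in the TG and 16% to 54.9% (median 31.4%) in the SCG (adjusted p = 0.0002, permutation test). The SCG had the smaller share of 5′-halves and the larger share of 5′-tRFs, with overlap in both. 3′-halves were rare but made up 0.217% to 0.964% (median 0.588%) in the TG and 0.0537% to 0.342% (median 0.124%) in the SCG (p = 1e-05, the smallest the permutations can give, adjusted p = 8e-05). i-tRFs were 3.81% ± 1.48 in the TG and 2.16% ± 1.00 in the SCG (SD, n = 12, adjusted p = 0.00934, permutation test). The shares of 3′-tRFs were 4.50% and 4.28% on average (adjusted p = 0.86). After saline, tRF counts per 100 miRNA counts (median 3.36 in the TG and 8.14 in the SCG) and the shares differed in the same directions. Adjusted p was 0.00307 for that ratio, 0.0189 for 5′-halves, 0.00016 for 5′-tRFs, 0.002 for i-tRFs and 8e-05 for 3′-halves (permutation test). For 3′-tRFs it was 0.0933.

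**Figure D3:**
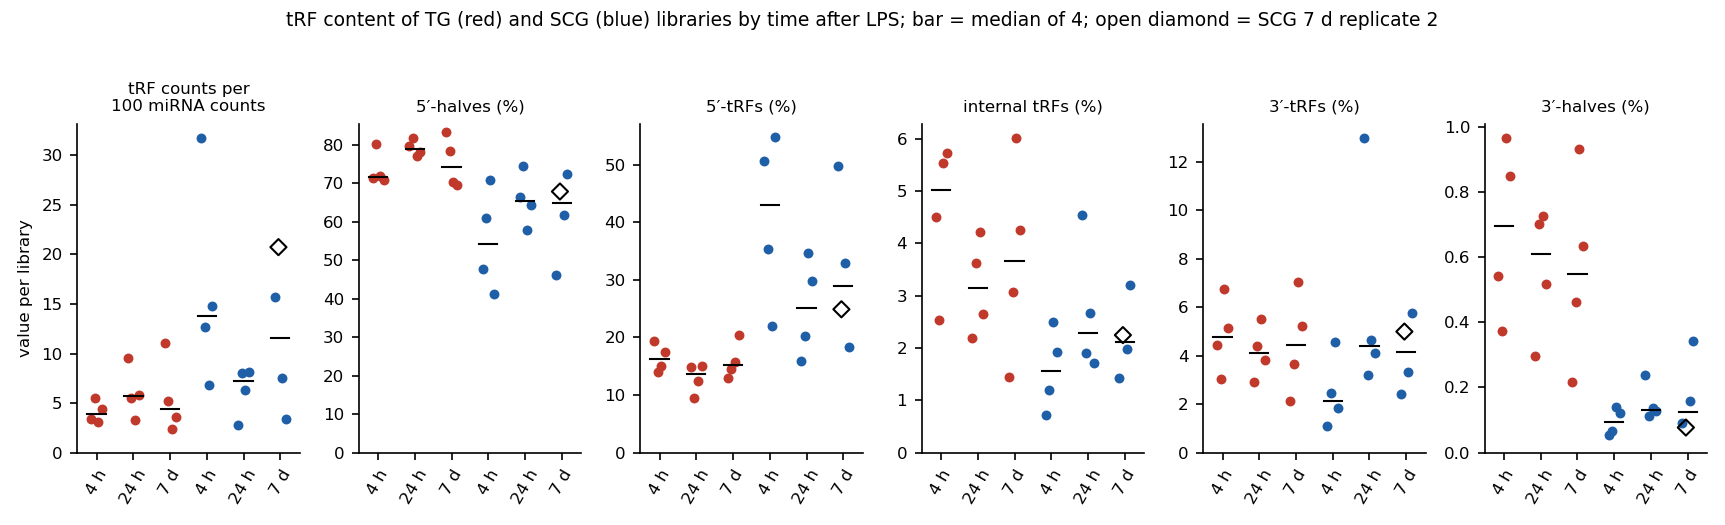
tRF counts per 100 miRNA counts and the percentage of tRF counts in each fragment class, in each TG (red) and SCG (blue) library at 4 h, 24 h and 7 d after LPS, with the median of 4 as a bar and SCG 7 d LPS replicate 2 as an open diamond. The 3′-half share separates the ganglia most, with TG medians above SCG medians at every time, and SCG 24 h LPS replicate 1 stands out with 13.0% of 3′-tRFs.

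Fragment by fragment, 160 of 599 tRFs were higher in the TG (26.7%) and 141 in the SCG (23.5%), and without SCG 7 d LPS replicate 2 there were 162 (24.7%) and 150 (22.8%) of 657. The split depends on the scaling: with library totals in place of TMM it was 204 and 64, and with each library scaled to its miRNA counts 118 and 172. These scalings moved the median log2 difference of all tRFs by 0.56 and -0.35, so differences of single tRFs are relative to the other tRFs. Every TG library lay above every SCG library for 36 tRFs (6.01%), of which 21 were i-tRFs and 12 were 3′-halves, and the reverse held for 1 (0.167%). Leaving out SCG 7 d LPS replicate 2, these numbers were 37 (6.18%) and 2 (0.334%). Of the 29 3′-halves tested, 19 were higher in the TG and 1 in the SCG (median 2.13 against -0.03 over all tRFs). Of 141 5′-tRFs, 52 were higher in the SCG and 19 in the TG (median -0.43), and of 218 i-tRFs, 20 and 71 (median 0.20). The sign of these 2 medians depends on the scaling: that of 5′-tRFs was 0.15 with library totals, and that of i-tRFs -0.15 with scaling to the miRNA counts, while that of 3′-halves was 2.84 and 1.80. The 97 5′-halves split into 36 higher in the SCG and 35 higher in the TG (median 0.03).

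Among 5′-halves and 5′-tRFs that share their 5′ end, the differences ran in opposite directions by length. Fragments that share their first 26 bases were taken as a family, an arrangement chosen after the values were seen, and each length was given as a share of the family's counts. In the His GTG family the TG and SCG libraries favoured neighbouring ends. The 34-nt fragment made up 28.6% to 64.4% (median 55%) of the family's counts in the TG and 5.46% to 25.2% (median 14%) in the SCG. These ranges did not overlap, nor did they after saline. The 35-nt fragment made up 6.69% to 30.5% (median 10.4%) of the family's counts in the TG and 26.9% to 55% (median 36.1%) in the SCG. It was the most abundant length in the SCG by the median, as the 34-nt fragment was in the TG. The log2 differences were 1.32 (adjusted p = 3.02e-05) for 34 nt and -2.82 (adjusted p = 5.01e-08) for 35 nt (edgeR's quasi-likelihood test with Benjamini-Hochberg adjustment), and the 36-nt fragment, which is 1 base longer, was again higher in the TG (1.48).

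In the Gly GCC and Lys CTT families the shares of the lengths differed as well, although the most abundant length by the median was the same in both ganglia, 31 nt for Gly GCC and 33 nt for Lys CTT. The 32-nt Gly GCC fragment made up 13.1% to 46.7% (median 36.5%) of the family's counts in the TG and 2.13% to 11.4% (median 4.31%) in the SCG, without overlap after LPS or saline (log2 2.07, adjusted p = 1.37e-07). The 31-nt fragment differed in the other direction (-1.34, adjusted p = 6.37e-05). In the Lys CTT family the 31-nt fragment, classed as a 5′-tRF, made up 2.80% to 16.3% (median 3.91%) of the family's counts in the TG and 12% to 47.7% (median 23.9%) in the SCG (log2 -2.64, adjusted p = 3.88e-06). The 33-nt fragment made up 50.8% to 66.2% (median 59.9%) of the family's counts in the TG and 15.1% to 48.7% (median 37.2%) in the SCG, and these shares did not overlap after LPS but did after saline. Its level differed by 0.63 (adjusted p = 0.0379, and 0.0745 without SCG 7 d LPS replicate 2), a call that leaving out any of 15 of the 24 libraries ended.

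**Figure D4:**
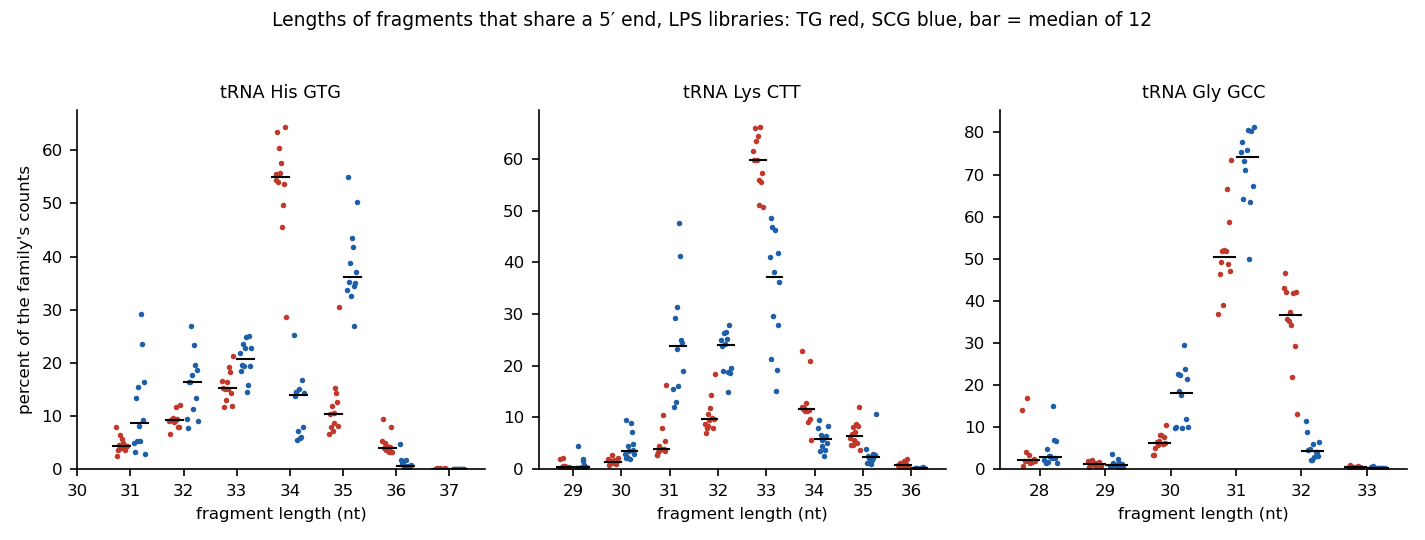
Share of each fragment length among the counts of 3 tRNA fragment families that share a 5′ end, for the 12 TG (red) and 12 SCG (blue) LPS libraries, with the median of 12 as a bar. TG points lie above SCG points at 33 nt for Lys CTT, 34 nt for His GTG and 32 nt for Gly GCC, and SCG points are higher on the whole at 31 nt for Lys CTT and at 35 nt for His GTG.

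At the other cut, some 3′-halves differed according to the base at which they begin. The 40-nt Asn GTT 3′-half was at 423 to 808 CPM (median 571) in the TG and 0 to 54 CPM (median 19.6) in the SCG of the tRF counts. No SCG library came near the TG, and the difference was 4.74 ± 0.27, adjusted p = 1.57e-13 after LPS and 4.57 after saline. The 41-nt fragment of the same tRNA was at 124 to 281 CPM (median 174) in the TG and 57.3 to 331 CPM (median 175) in the SCG, with overlapping ranges and a difference of 0.15 (adjusted p = 0.602). The same held for Asp GTC: the 40-nt fragment was at 389.9 to 702 CPM (median 579) in the TG and 61.6 to 149 CPM (median 100.3) in the SCG (log2 2.47 ± 0.19, adjusted p = 4.43e-11), while the 41-nt fragment differed by -0.13 (adjusted p = 0.624). For Glu TTC the differences were 3.04 (40 nt) and 1.51 (41 nt, adjusted p = 0.0103). This was not general: over 81 pairs of tested fragments that differ by 1 base at the 5′ end, the shorter was the more TG-biased in 44, with a median difference of 0.07 on the log2 scale. Among the 17 pairs with a 3′-half the shorter was more TG-biased in 10 (median 1.29), by more than 1 in 9, and the longer by more than 1 in 4.

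By parent tRNA, fragments of Asn and Asp tRNAs differed mainly toward the TG. Of 13 Asn fragments, 7 were higher in the TG and 1 in the SCG (median 4.16, or 2.17 over the 14 tested without SCG 7 d LPS replicate 2), and of 49 Asp fragments, 24 and 8 (median 0.56). The 25-nt Asn GTT i-tRF tRF-25-U1O0789NLJ, with the same 5′ end as the 40-nt 3′-half, was at 496 to 1133 CPM (median 887) in the TG and 4.87 to 66.1 CPM (median 25.9) in the SCG (log2 4.83 ± 0.31, adjusted p = 1.06e-12). All 13 called of 23 Leu i-tRFs and all 7 called of 14 Gln i-tRFs were higher in the TG (5 Leu and 7 Gln i-tRFs with scaling to the miRNA counts). In contrast, 11 of 18 His 5′-tRFs were higher in the SCG and none in the TG (7 and 2 with library totals). The largest difference toward the SCG was that of the 18-nt Leu 5′-tRF tRF-18-RPM830D4, at 0 to 54.1 CPM (median 12.8) in the TG and 24.4 to 2563 CPM (median 239) in the SCG with overlapping ranges (log2 -5.56 ± 0.97, adjusted p = 6.46e-05). After saline it was -2.86.

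The tRF differences were for the most part shared with saline mice. Of 119 tRFs higher in the TG after saline (20.8% of 571), 110 (92.4%) were called in the same direction after LPS, and of 125 higher in the SCG (21.9%), 102 (81.6%). None was called in the opposite direction. Conversely, 40 of 150 tRFs called higher in the TG after LPS and tested after saline, and 30 of 132 called higher in the SCG, were not called after saline, 36 and 30 of them with the same sign. Without 3 TG 7 d saline libraries that stood apart, over the same tRFs, 100 of the 106 called higher in the TG after saline (94.3%) and 89 of those called higher in the SCG (88.1%) were called in the same direction after LPS. With the filter on low counts redone without those libraries, the numbers were 109 of 146 (74.7%) and 79 of 121 (65.3%). Of the 146 and 121, 115 and 89 were tested after LPS. The correlation of the log2 differences over the 537 tRFs tested in both was 0.927, as a description over tRFs. No tRF passed the test of a ganglion difference that differed between LPS and saline mice (0 of 729, 46 at an unadjusted p under 0.05, edgeR's quasi-likelihood test, and 0 by DESeq2 and by limma). At 4 h, 24 h and 7 d after LPS, 99 (16.5%), 103 (17.2%) and 85 (14.2%) tRFs were higher in the TG, and 88 (14.7%), 49 (8.18%) and 60 (10%) in the SCG. None passed the test of a change over time (16 at an unadjusted p under 0.05, 0 by the DESeq2 likelihood ratio test) or between the sexes (43). Without SCG 7 d LPS replicate 2, which these counts include, none passed the test over time either (22 at an unadjusted p under 0.05).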

How the data were processed

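Raw counts of miRNAs and tRFs per library were deposited by the authors as 2 tables, with a tRF annotation giving sequence, type and parent tRNA. The locations in that annotation are those of human tRNAs, so they were not used as mouse places. Whether each parent tRNA holds for the mouse was not tested. Libraries were made from 140 ng of total RNA (mean RIN 8.3, range 6.4 to 9.3) with a small RNA kit, per the labels' protocols, and average RNA yields were 193 ng/µL for TG and 64 ng/µL for SCG. FastQC 0.11.9 and the genome build GRCm39 are named in the submitters' processing notes, and an aligner or counter is not given in the sources used here. Per the labels' protocols, 48 of 96 samples were sequenced. Libraries were grouped by ganglion, treatment, time and sex from their titles. Replicates came from different mice, but the labels do not tell which TG and SCG libraries share a mouse.

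Counts were tested with edgeR 4.0.16 (quasi-likelihood F-test, TMM scaling, filter with minimum count 10 by group, Benjamini-Hochberg adjustment over all features tested) in R 4.3.3, with time and sex as covariates, each table with its own scaling. The ganglion by treatment test used all 48 libraries. The model was tested on simulated counts. Alternatives were DESeq2 1.42.0, limma 3.58.1, other scalings and filters, no sex term and leaving out libraries. In the least different of 36 replicate pairs, the counts differed by a chi-square per degree of freedom of 36.5 (miRNA) and 10.5 (tRF), so all libraries were kept as separate replicates. Places are from RefSeq and GENCODE in GRCm38.p6.

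The members and the 27 miRNA lists were chosen with earlier results of these data known. Named were, per direction, the 10 largest called differences at a mean of at least 20 CPM (tRFs: 6, at least 100 CPM), the 5 most abundant called, up to 4 members per list by smallest p, all members of the miR-183 and Hox lists, miR-155-5p, miR-146a-5p, miR-146b-5p and miR-21a-5p, the features called for ganglion by treatment and up to 5 near-equal abundant miRNAs. Other names were chosen after their values were seen. Another fragment family is not reported here.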

Additional observations from a re-analysis of the deposited data

Results flagged for a closer look

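Of 90 checks for a library far from the other 3 of its group (15 measures in 6 groups), 9 had a gap to the nearest library larger than the 95% critical share of the group's range in Dixon's test, where chance gives about 1 in 20, or 4.5. Of these, 3 were marker sums of SCG 7 d LPS replicate 2: 9944 CPM of leukocyte miRNAs against 614 to 680 in the other 3 libraries, 35432 CPM of muscle miRNAs against 397 to 1194, and 11378 CPM of epithelial and pituitary miRNAs against 422 to 894. Muscle miRNAs also stood out in SCG 4 h LPS replicate 1, with 12121 CPM against 288 to 2191, and in TG 24 h LPS replicate 4, with 13598 CPM against 5932 to 6414. TG 4 h LPS replicate 4 was low in epithelial and pituitary miRNAs, with 145 CPM against 1453 to 1538. TG 4 h LPS replicate 1 had 2198180 miRNA counts against 3910387 to 4088059. TG 4 h LPS replicate 2 had 80.1% 5′-halves among its tRF counts against 70.8% to 71.8%, and SCG 24 h LPS replicate 1 had 13.0% 3′-tRFs against 3.21% to 4.63%.

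The TG minus SCG difference of miR-21a-5p differed between LPS and saline mice by -0.91 on the log2 scale (adjusted p = 0.0194, edgeR's quasi-likelihood test with Benjamini-Hochberg adjustment).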

How the results depend on the processing

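The count of miRNAs called for ganglion by treatment, 1 with all libraries, was 2 without SCG 7 d LPS replicate 2, 2 without that library and 3 SCG saline libraries, 3 with DESeq2, 0 without TG 7 d saline replicates 1, 2 and 4 (also over the same miRNAs), and 0 to 2 when each of the 48 libraries was left out. DESeq2 called 1 miRNA for ganglion by time and 12 for ganglion by sex. Of tRFs, 64 were higher in the SCG with library totals in place of TMM, and 249 were higher in the TG and 227 in the SCG with no filter on low counts. With library totals the miRNA median moved by -0.12 and the calls were 108 and 180. Leaving out 1 library at a time gave 117 to 194 miRNAs higher in the TG and 144 to 199 in the SCG after LPS, 168 to 188 and 170 to 191 after saline, 153 to 173 and 139 to 158 tRFs after LPS, and 118 to 138 and 122 to 139 after saline. The highest miRNA counts after LPS, and the medians -3.48 (Hox), 2.44 (muscle), 0.22 (miR-17-92) and 0.54 (miR-181 family), the last 2 of opposite sign to the value with all libraries, were those without SCG 7 d LPS replicate 2. Without it the difference in miRNA total was 616910 counts (adjusted p = 0.0537 against 0.0331, permutation test). The cause was not tested. With no filter on low counts, 16 of 159 miRNAs and tRFs chosen to be named lost their call. No called difference of a named miRNA or tRF changed sign under any alternative. Without SCG 7 d LPS replicate 2 and 3 SCG saline libraries that also stood apart, 166 of 192 and 151 of 172 miRNAs called after saline were called in the same direction after LPS. The calls of miR-9-5p, miR-133a-3p, miR-23b-3p, miR-133b-3p and miR-24-3p were ended by leaving out 20, 18, 5, 4 and 4 of the 24 libraries. No paired analysis was possible because the labels carry neither replicate numbers nor animal identifiers.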

Other observations

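SCG saline libraries 4 h replicates 1 and 2 and 24 h replicate 1 held 94432 and 20121 CPM of muscle miRNAs and 21092 CPM of the miR-183 cluster. TG 7 d saline replicates 1, 2 and 4 held 61230.4, 61001 and 56548 CPM of pan-neuronal miRNAs, against at most 38387 CPM in the other TG saline libraries. The Hox-cluster miR-615-3p was at 39.4 and 46.6 CPM in replicates 1 and 2, against at most 3.39 CPM in the other TG saline libraries. Saline values include these libraries unless stated, and leaving them out was an alternative chosen after seeing the data.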
